A study of Mus musculus with 27 samples.

Results

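Gene expression in mouse embryonic stem cells 8 h after a brief hydrogen peroxide exposure was compared with that in untreated cells at 0 h. The comparison was taken from the deposited table for this time point, with 3 treated and 3 untreated libraries out of the 27 libraries in 9 groups that the series holds. A gene was kept when it reached 1 FPKM (a fragment count scaled to transcript length and to library size) or more in at least 3 of these 6 libraries, which left 12450 of 38352 genes. The cells were E14Tg2a, an established mouse embryonic stem cell line labelled wild type; per the labels it was kept on gelatin-coated dishes, in serum with leukemia inhibitory factor (LIF) and the 2i inhibitor pair. Treated cells received H2O2 at 500 µM for 30 min, then medium that had been conditioned by untreated cells, and were collected at 8 h. This dose is that of the treatment protocol; the series text writes mM in place of µM. Untreated cells were collected at 0 h. Each group holds 3 libraries, which the series text calls biological replicates of 3 separate time-course experiments. Untreated cells that were given the medium change alone, or collected at 8 h, were not analysed here, so the effects of the oxidant, of the change of medium and of 8 h in culture cannot be told apart. Treated cells at 6 h and at 10 h served to show what was particular to 8 h.

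Hydrogen peroxide oxidises cysteine residues, and cells answer it with several transcription programs. NRF2, encoded by Nfe2l2, is held in the cytoplasm and degraded through KEAP1. When KEAP1 cysteines are oxidised, NRF2 accumulates, pairs with small MAF proteins and binds antioxidant response elements in genes for glutathione synthesis, thioredoxin and peroxiredoxin repair, heme breakdown and NADPH supply, while BACH1 occupies the same elements as a repressor. Lysosomes, the acidic organelles in which proteins, lipids and sugars are broken down, are controlled as a set by TFEB, TFE3 and MITF, which bind CLEAR elements once they are released from the kinase mTORC1 at the lysosomal surface. The same stress can engage p53, the guardian of genome integrity, and AP-1, the FOS and JUN family of immediate early factors.

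All 10 markers of embryonic stem cell identity stood at 1 FPKM or more in each of the 6 libraries. Replicate 3 stood apart in both groups. Set against untreated replicates 1 and 2, log2 expression had a slope on transcript GC content of 0.197 per 10 points in 8 h replicate 3, 0.0301 and 0.0387 in 8 h replicates 1 and 2, and 0.381 in untreated replicate 3. Ribosomal protein mRNAs lay 0.389 (log2) higher in 8 h replicate 3 and 1.14 higher in untreated replicate 3, and the summed FPKM of these libraries was 347067 and 395760, against 311384 to 315602 in the other 4. Transcripts of cell types that the cultures should lack were present and uneven. Hepatocyte markers, 33 genes, summed to 116.0, 103.0 and 30.0 FPKM in 8 h replicates 1, 2 and 3, against 23.0, 23.2 and 53.1 in untreated replicates 1, 2 and 3. That of 14 astrocyte and brain genes was 19.3 to 21.1 at 8 h and 5.55 to 8.41 in untreated cells, with Gfap at 2.09 to 2.72 against 0.0918 to 0.247 scaled FPKM and Lcn2 at 2.51 to 3.43 against 0 to 0.0206. Blood and macrophage genes summed to 4.79 to 6.64 at 8 h and 2.90 to 4.10 in untreated cells, and fibroblast and feeder genes to 8.18 to 8.81 and 7.60 to 9.56. Of the fibroblast and feeder sums Fbln1 alone gave 5.77 to 6.19 at 8 h and 5.45 to 7.38 in untreated cells. By the test described next, 3 of 4 tested astrocyte and brain genes (Gfap, Lcn2 and Aldh1l1) were called higher. Gfap and Lcn2 entered the test through the 8 h libraries only, so this count cannot be set against the share of all tested genes. Of the 2 tested blood and macrophage genes Lyz2 was called higher (1.37 to 1.84 scaled FPKM at 8 h and 0 to 0.0411 in untreated cells). Cd74, the other, had 1.26, 1.11 and 2.02 at 8 h, against 2.64, 1.91 and 3.36 in untreated cells (−0.56, SE 0.20, adjusted p = 0.133 by limma and 0.0229 with the replicate number as a block). Of the 6 libraries compared, Lyz2, like Gfap and Lcn2, reached 1 FPKM in those at 8 h only, so the calls of Gfap, Lcn2 and Lyz2 are given as a description. In untreated cells Lyz2 averaged 0.0258 at 0 h and 1.26 at 24 h (all 27 libraries scaled together). The part of these transcripts in the results below was not tested.

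At 8 h, 858 genes were higher and 608 lower than in untreated cells, 1466 in all. Genes of the lysosome, of AP-1 and of cell death stood among those that rose, together with 6 of 29 tested NRF2 targets. Pluripotency factors, amino acid synthesis genes and protein chaperones stood among those that fell. Changes were moderate in size. Of these 1466 genes, 212 (133 higher, 79 lower) had an estimated change of 2-fold or more, a cut on the estimate and not a test. Levels are given as scaled FPKM, the deposited FPKM divided by a median-of-ratios factor for each library, and changes as log2 differences of scaled FPKM + 1, 8 h minus untreated, with the standard error (SE) after them. A gene is called changed when limma, fitted to the 6 libraries, gave an adjusted p below 0.05 after Benjamini-Hochberg correction over all 12450 genes. These RNA samples are bulk, so fewer cells of a type and less RNA per cell cannot be told apart.

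The calls amount to 11.8% of the genes tested, 6.89% higher and 4.88% lower. With the replicate number as a block, which assumes that equal numbers are partners, 3221 genes passed (25.9%), all 1466 among them. Of these, 1714 (13.8% of all tested genes) were higher and 1507 (12.1%) lower. With replicate 3 of both groups left out, 6634 passed (53.3%; 3249, or 26.1%, higher and 3385, or 27.2%, lower), again with all 1466 among them. The test depended strongly on single libraries: 3826 genes passed without untreated replicate 3, 216 without untreated replicate 1, 216 without untreated replicate 2, 145 without 8 h replicate 3, 9 without 8 h replicate 1, and 0 by limma without 8 h replicate 2, where 2346 had an unadjusted p below 0.05. No call named below was therefore kept in every one of these fits. The authors' deposited table marked 1416 genes as changed, 1095 up and 321 down; 717 of these were tested here and 584 called. Of the genes tested, 295 passed the filter through the 8 h libraries only, with no untreated library at 1 FPKM, and 64 through the untreated libraries only; 180 of the 295 were called higher and 37 of the 64 lower. Such genes could enter the test only by differing, so their values are given as a description. In 20.5% of the genes tested all 3 treated libraries lay above all 3 untreated ones, and in 19.2% below. Without scaling, the median change of all genes was 0.11 in place of −0.03, and the 1522 calls split into 1208 higher and 314 lower (79.4% higher, against 58.5% with scaling), so the balance of rises and falls rests on the scaling.

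**Figure D1:**
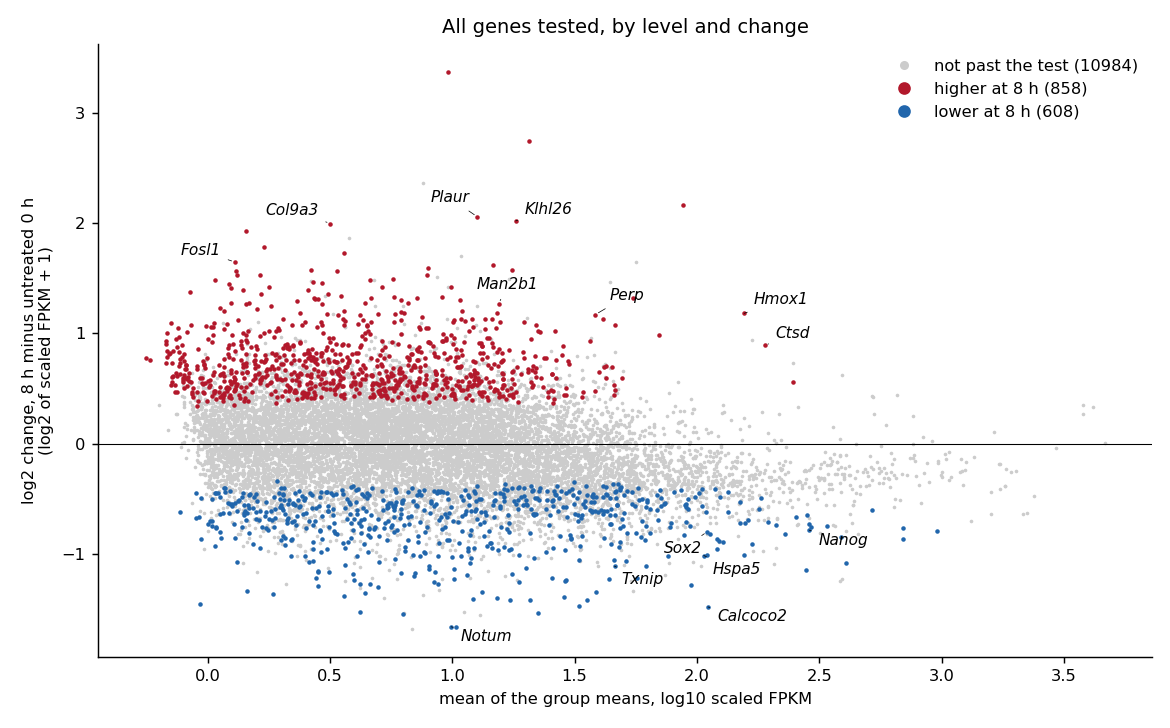
Each point is 1 of the 12450 genes tested; the horizontal axis is the mean of the 8 h and untreated group means (log10 of scaled FPKM) and the vertical axis the log2 change, 8 h minus untreated 0 h. Red points mark the 858 genes called higher and blue points the 608 called lower; Plaur and Klhl26 stand at the top of the labelled genes and Notum and Calcoco2 at the bottom; the 3 red points above Plaur are mitochondrial tRNA genes, which the rule for named genes leaves out.

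Plaur, the receptor of urokinase, led the named genes that rose. Its scaled FPKM was 18.9, 20.4 and 23.7 at 8 h, against 3.72, 3.97 and 5.21 in untreated cells (2.06, SE 0.15, adjusted p = 0.00563 by limma). Every treated library stood far above every untreated one. Klhl26, a Kelch-repeat gene, had 28.3, 30.4 and 30.5 at 8 h and 5.92, 7.17 and 6.67 in untreated cells (2.02, SE 0.10), again with a wide gap between the groups. The calcium channel gene Trpm1, itself known as a MITF target in melanocytes, had 6.06, 6.08 and 6.07 at 8 h, against 1.08, 1.09 and 1.21 in untreated cells (1.73, SE 0.09), the tightest pair of groups among these. Col9a3, a collagen gene of cartilage, averaged 5.68 ± 0.516 at 8 h and 0.674 ± 0.153 in untreated cells (SD, n = 3 each; 2.00), and it passed the filter through the 8 h libraries only. The 12 largest rises also included S100a13 (1.62), Phlda1 (1.59), Azin2 (1.50), Sp5 (1.48), Slc4a11 (1.42), Matn1 (1.42) and Gpx6 (1.34). They cover a calcium-binding protein, a pleckstrin-homology protein induced by growth factors, an antizyme inhibitor, a transcription factor downstream of Wnt, a membrane transporter, a cartilage matrix protein and a glutathione peroxidase.

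Among the falls, Notum, an extracellular enzyme that inactivates Wnt ligands, had 3.76, 4.01 and 4.67 scaled FPKM at 8 h, against 12.7, 13.2 and 21.03 in untreated cells (−1.66, SE 0.21, adjusted p = 0.00994 by limma). Calcoco2, an autophagy receptor of the cargo-binding kind, had 56.1, 55.1 and 61.3 at 8 h and 148, 143 and 202 in untreated cells (−1.48, SE 0.16). Slc7a3, a transporter of cationic amino acids, had 14.8, 16.2 and 15.1 at 8 h, against 42.2, 42.6 and 40.9 in untreated cells (−1.39, SE 0.09). In all 3 genes the groups were well apart. Rcor2, a corepressor partner of the histone demethylase LSD1, changed by −1.48, Khdc3, an oocyte and embryo gene, by −1.42, Eras, a Ras protein of embryonic stem cells, by −1.40, and Dio3, a thyroid hormone deiodinase, by −1.35. The untreated libraries were widely spread for Khdc3 (30.4 ± 13.1) and Eras (22.3 ± 8.17; SD, n = 3 each, all 27 libraries scaled together). Fgf17 (−1.53), Ly6e (−1.42) and Folr1 (−1.41) had untreated replicate 3 well above untreated replicates 1 and 2; for Fgf17, a growth factor gene, the untreated values were 4.66, 4.15 and 11.97, against 1.57, 1.45 and 1.50 at 8 h. Crxos (−1.55) lies on the strand opposite to Crx, and Hnrnpa3 (−1.54) has near-identical copies in the genome; how counting treated strand and multiple matches is not given in the sources used here, so both are uncertain.

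The heme oxygenase gene Hmox1, the sulfiredoxin gene Srxn1, the autophagy adaptor gene Sqstm1 and the glutathione synthesis gene Gclm rose, as did Nfe2l2 itself and the small MAF genes Maff and Mafg. Most of the other targets, Nqo1 and Txnrd1 among them, did not pass the test, and no gene for catalase, a superoxide dismutase or a glutathione peroxidase on the list of those enzymes did; Gpx6, named above, lay outside that list. Without replicate 3 of both groups, 7 of 10 NRF2 regulators were called higher and 1 lower, and 11 of 29 targets higher and 5 lower, against 26.1% and 27.2% of all tested genes in that fit.

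The promoters of a changed target, Gclm, and a changed regulator, Mafg, are shown for the motif they hold. In the 250 bases before the RefSeq start site (GRCm38.p6), both strands were searched for the core of the antioxidant response element, TGACNNNGC. A gene can have more than 1 window, and it was counted when any of its windows held the core. That was so for all 4 changed genes of the regulator list, Fbxl12 among them, and for 1 of 4 changed targets with a window. It held for 5 of the 9 regulators with a window (55.6%) and 6 of the 23 NRF2 targets with a window (26.1%). The share was 13.9% of the 8774 tested genes with a window and 11.5% of all 27025 genes in the table. Counted by window, the core was in 4 of 7 windows of the changed regulators and 5 of 16 of all regulators. For tested genes it was in 11.7% of 11116 windows. These matches are letters in a window and show no binding. Gclm lies on the plus strand at chr3:122245307-122245556 in the window shown, and Mafg on the minus strand at chr11:120633571-120633797; capitals mark the core, which in both reads on the opposite strand and starts 134 and 222 bases before the start site.
Gclm: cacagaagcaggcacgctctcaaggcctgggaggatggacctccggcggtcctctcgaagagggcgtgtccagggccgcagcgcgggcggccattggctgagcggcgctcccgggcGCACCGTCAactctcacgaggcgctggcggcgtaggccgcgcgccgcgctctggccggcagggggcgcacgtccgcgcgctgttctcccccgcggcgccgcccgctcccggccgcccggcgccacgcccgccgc
Mafg: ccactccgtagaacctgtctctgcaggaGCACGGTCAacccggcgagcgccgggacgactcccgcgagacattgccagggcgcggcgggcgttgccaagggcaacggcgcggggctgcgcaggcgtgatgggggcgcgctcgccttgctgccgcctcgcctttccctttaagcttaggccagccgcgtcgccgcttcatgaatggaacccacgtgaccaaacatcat

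Of the 10 genes listed as NRF2 regulators, 4 rose (40%, against 6.89% of all tested genes) and 0 fell. The median of the 10 was 0.47, against −0.03 for all tested genes. Maff, a small MAF partner of NRF2 and also an immediate early gene, had 4.17, 5.30 and 4.80 scaled FPKM at 8 h, against 0.761, 0.961 and 1.65 in untreated cells (1.46, SE 0.18, adjusted p = 0.00974 by limma). Mafg, a second small MAF partner (Ensembl ENSMUSG00000051510, chromosome 11, 120625117 to 120633600, minus strand), had 24.4, 22.2 and 20.03 at 8 h and 11.7, 12.7 and 11.2 in untreated cells (0.85, SE 0.11). Both genes had groups with no overlap. Fbxl12, an F-box subunit of a ubiquitin ligase, rose by 0.88. It is counted among the 10 and the 4 by its place on the list alone. A role of Fbxl12 in NRF2 control was not tested. Nfe2l2 had 32.9, 32.98 and 33.4 at 8 h, against 24.3, 24.1 and 24.0 in untreated cells (0.44, SE 0.08), a small rise with hardly any spread. Keap1, the sensor, had 9.68, 9.79 and 10.6 at 8 h and 7.27, 8.19 and 8.01 in untreated cells and missed the threshold (0.32, SE 0.10, adjusted p = 0.0831 by limma). Bach1, the repressor, had 10.9, 10.0 and 6.70 at 8 h, against 4.25, 4.23 and 1.74 in untreated cells, with replicate 3 lowest in both groups. Its change of 1.25 (SE 0.31) had an adjusted p of 0.0527 by limma without the block and 0.011 with it, and Mafk, the third small MAF gene (0.50, SE 0.14), had 0.0714 and 0.0238.

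Of the 32 listed NRF2 targets 29 were tested; 6 rose and 0 fell (8 and 2 with the block; median 0.01, a sign that differed between settings); 6.89% of all genes rose. With the block 13.8% of all tested genes were called higher and 12.1% lower. Hmox1, which degrades heme (ENSMUSG00000005413, chromosome 8, 75093621 to 75100589, plus strand), had 208, 206 and 237 scaled FPKM at 8 h, against 90.3, 87.6 and 108 in untreated cells (2.28 times the untreated mean; 1.18, SE 0.13, adjusted p = 0.0083 by limma). Srxn1, which restores over-oxidised peroxiredoxins (ENSMUSG00000032802, chromosome 2, 152105516 to 152111376, plus strand), had 30.6, 30.3 and 31.4 at 8 h and 14.9, 14.9 and 14.4 in untreated cells (1.01, SE 0.08). Sqstm1, which encodes p62, had 86.7, 88.6 and 105 at 8 h and 39.7, 41.8 and 60.2 in untreated cells (0.99, SE 0.19). No treated library of these 3 genes came near an untreated one. Slc48a1, a heme transporter, rose by 0.81 and Ephx1, a microsomal epoxide hydrolase, by 0.55. Gclm, the modifier subunit of glutamate-cysteine ligase, had 19.96, 19.04 and 20.1 at 8 h, against 14.1, 13.5 and 13.8 in untreated cells (0.48, SE 0.08); after correction for GC content and length its adjusted p was 0.224 by limma. Its catalytic partner Gclc had 16.0, 16.0 and 12.9 at 8 h and 12.4, 11.3 and 7.45 in untreated cells, which missed the threshold (0.51, SE 0.20, adjusted p = 0.151 by limma) and passed with the replicate block (0.0316). The block also called Cbr3, a carbonyl reductase (0.63, adjusted p = 0.0286 by limma), higher, and Gsta4, a glutathione transferase (−0.73, adjusted p = 0.0296), lower.

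Several well-known targets did not pass the test. Nqo1, a quinone reductase, had 50.0, 49.3 and 51.8 scaled FPKM at 8 h, against 50.0, 48.2 and 56.3 in untreated cells (−0.03, SE 0.10). Txnrd1, the cytosolic thioredoxin reductase, had 44.9, 47.1 and 40.8 at 8 h and 45.3, 42.9 and 30.8 in untreated cells (0.17, SE 0.17). The groups overlapped in both. The cystine transporter gene Slc7a11 was too low to be tested, at 0.382, 0.415 and 0.500 FPKM at 8 h, against 0.534, 0.531 and 0.610 in untreated cells.

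**Figure D2:**
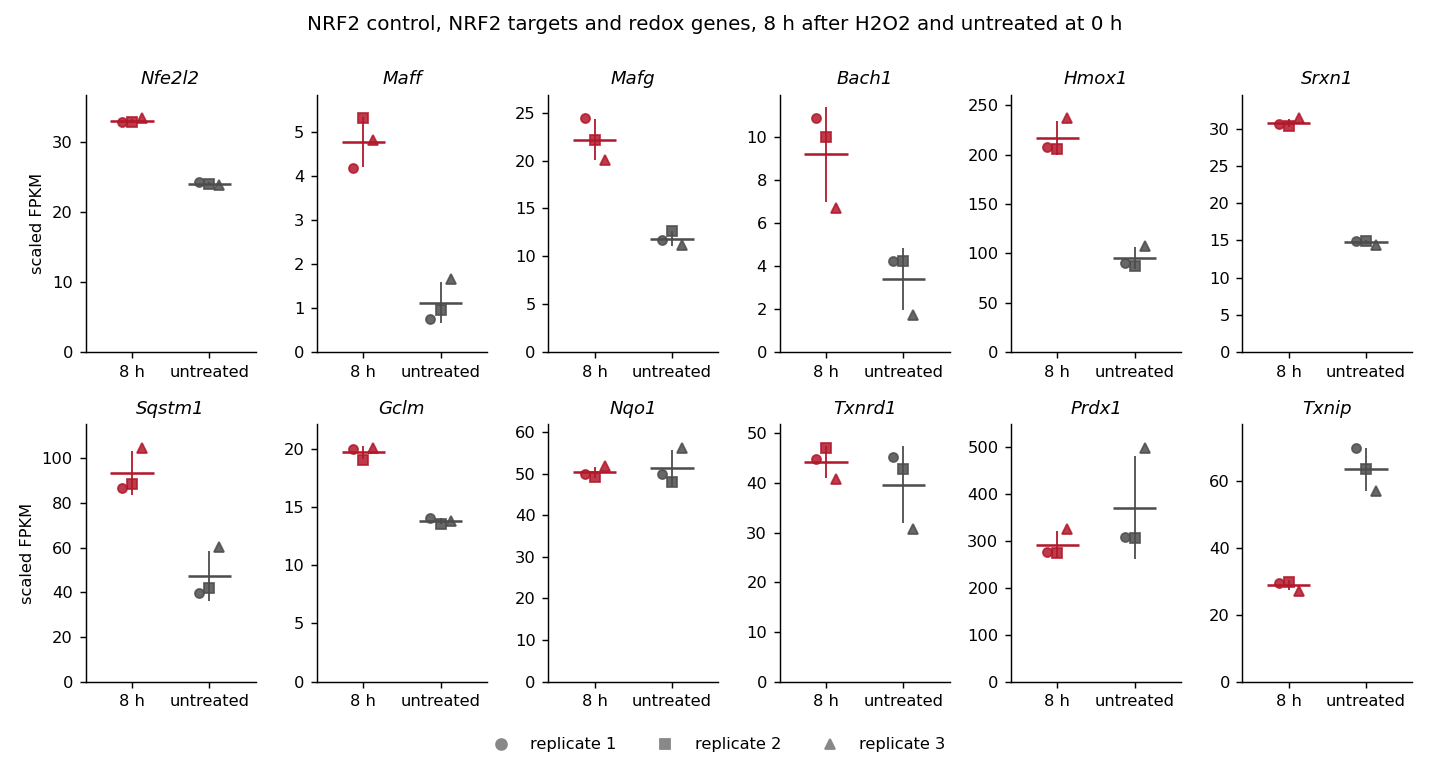
Scaled FPKM (vertical axes, from 0) of 12 redox genes in the 3 libraries at 8 h (red) and the 3 untreated libraries at 0 h (grey); symbols mark the replicate number, horizontal lines the mean and vertical lines the SD (n = 3 each). Hmox1, Srxn1, Sqstm1, Gclm, Nfe2l2, Maff, Mafg and Bach1 show no overlap between groups and lie higher at 8 h, Txnip lies lower, and Nqo1, Txnrd1 and Prdx1 overlap.

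Peroxiredoxins, thioredoxins and catalase remove peroxides directly or restore the proteins that do. Of 17 tested peroxiredoxin and thioredoxin genes Srxn1 rose (5.88%, against 6.89% of all tested genes), and Txnip and Txnrd3 fell (11.8%, against 4.88%; median −0.31). Txnip, which binds thioredoxin and restrains glucose uptake, had 29.4, 29.7 and 26.99 scaled FPKM at 8 h, against 69.8, 63.5 and 56.8 in untreated cells (−1.11, SE 0.11, adjusted p = 0.00728 by limma), and its relative Arrdc4 fell by 1.11 as well. Txnrd3, a thioredoxin glutathione reductase best known from testis, changed by −0.55. Prdx1, an abundant peroxiredoxin, had 277, 273 and 325 at 8 h and 309, 306 and 498 in untreated cells (−0.31, SE 0.23), with untreated replicate 3 standing high. Of 13 tested genes for catalase, superoxide dismutases and glutathione peroxidases 0 passed in either direction (median −0.33; with the block 1 was called lower, and without replicate 3 of both groups 4 were called higher and 6 lower). Without replicate 3 of both groups 26.1% of all tested genes were called higher and 27.2% lower. Catalase, encoded by Cat, had 31.1, 30.1 and 30.9 at 8 h and 28.7, 27.4 and 22.7 in untreated cells (0.22, SE 0.12, adjusted p = 0.254 by limma). Among 18 glutathione genes Gclm rose and Chac1, an enzyme that degrades glutathione, fell (−0.98). Each is 5.56% of the list, near the 6.89% higher and 4.88% lower of all tested genes. Of 17 genes of the pentose phosphate pathway and NADPH supply 0 passed. With the block, 5 peroxiredoxin and thioredoxin genes were called lower in place of 2, 2 glutathione genes higher and 2 lower, and 1 gene of NADPH supply higher and 3 lower. All tested genes gave 13.8% higher and 12.1% lower in that fit.

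Lysosome genes rose in 13 of 46 tested hydrolases (28.3%), 12 of 27 membrane proteins (44.4%) and 4 of 18 proton pump subunits (22.2%), against 6.89% of all tested genes, and fell in 2 hydrolases. The rises covered proteases, sugar- and lipid-cleaving enzymes, the main membrane glycoproteins, ion channels and transporters. The transcription factors held to control this set were not themselves higher: Mitf fell, and neither Tfeb nor Tfe3 passed the test.

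Promoters of this set were searched for the core of the CLEAR element, TCACGTGA, a palindrome that holds the E-box CACGTG. In the same 250-base windows it was present in 5 of 35 hydrolase genes (14.3%) and 4 of 25 membrane protein genes (16.0%), in 1 of 13 proton pump genes and in 0 of 24 genes for MiT/TFE factors and their control, against 1.93% of tested genes and 0.907% of all genes in the table. Among the members that changed, it was in at least 1 window of 1 of 13 hydrolase genes and 3 of 11 membrane protein genes. Ctsd, Mfsd1 and Mcoln1, all of which rose, are shown for their matches, marked by capitals. The Ctsd match begins 99 bases before the start site (chr7:142387908-142387937, minus strand, 30 bases shown because most of the window lies inside a longer GENCODE gene model), the 3 matches of Mfsd1 begin 71, 37 and 19 bases before it (chr3:67582518-67582767, plus strand), and that of Mcoln1 46 bases before it (chr8:3500269-3500486, plus strand).
Ctsd: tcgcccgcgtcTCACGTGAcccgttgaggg
Mfsd1: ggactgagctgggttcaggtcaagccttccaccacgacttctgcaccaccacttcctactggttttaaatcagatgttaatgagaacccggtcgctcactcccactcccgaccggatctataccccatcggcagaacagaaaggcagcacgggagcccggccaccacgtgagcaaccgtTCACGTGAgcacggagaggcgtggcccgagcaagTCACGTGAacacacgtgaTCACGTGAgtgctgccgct
Mcoln1: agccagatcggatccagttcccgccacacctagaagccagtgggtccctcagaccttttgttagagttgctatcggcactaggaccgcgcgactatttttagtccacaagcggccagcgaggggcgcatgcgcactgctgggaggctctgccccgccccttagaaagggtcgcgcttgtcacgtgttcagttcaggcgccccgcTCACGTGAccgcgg

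Of 46 tested genes for lysosomal hydrolases and their cofactors, 13 rose and 2 fell (median 0.29). With the replicate block 18 were called higher and 3 lower, without replicate 3 of both groups 29 and 7, and after correction for GC content and length 20 and 2. All tested genes gave 13.8% higher and 12.1% lower with the block, and 26.1% and 27.2% without replicate 3 of both groups. After correction for GC content and length, 1729 of all 12450 tested genes were called higher and 1826 lower. Of the 13, 1 passed the filter through the 8 h libraries only. Man2b1, lysosomal alpha-mannosidase (ENSMUSG00000005142, chromosome 8, 85083270 to 85098282, plus strand), had 21.7, 23.3 and 21.8 scaled FPKM at 8 h, against 8.96, 8.77 and 8.25 in untreated cells (2.57 times the untreated mean; 1.27, SE 0.09, adjusted p = 0.00563 by limma). Hexa, the alpha subunit of the hexosaminidase that degrades gangliosides, had 53.3, 54.7 and 62.6 at 8 h and 22.9, 23.8 and 29.7 in untreated cells (1.13, SE 0.14). Gaa, which cleaves glycogen in lysosomes, had 34.8, 34.3 and 37.8 at 8 h and 16.3, 17.3 and 17.4 in untreated cells (1.02, SE 0.09). In each of these genes the lowest treated library was well above the highest untreated one. Tpp1, a tripeptidyl peptidase, rose by 0.95. Ctsd, the aspartic protease cathepsin D and the most abundant of those named here (ENSMUSG00000007891, chromosome 7, 142375911 to 142388038, minus strand), had 237, 235 and 263 at 8 h, against 115, 120 and 166 in untreated cells (0.89, SE 0.17). The cysteine protease gene Ctsb rose by 0.60 (adjusted p = 0.0955 by limma after the GC correction). Manba, a beta-mannosidase, had 15.7, 16.4 and 16.1 at 8 h and 22.8, 21.4 and 20.3 in untreated cells (−0.40, SE 0.09), and the phosphatase gene Acp5, typical of osteoclasts and macrophages, averaged 1.01 ± 0.105 at 8 h and 2.46 ± 0.699 in untreated cells (−0.77, SE 0.16).

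Lysosomal membrane genes had 12 rises and 0 falls among 27 tested (median 0.47). The block called 15 higher and 1 lower, against 13.8% and 12.1% of all tested genes. The fit without replicate 3 of both groups called 21 and 2, against 26.1% and 27.2%. The GC correction gave 15 and 2, against 1729 and 1826 of all 12450 tested genes. Ctns, the cystine exporter, had 10.5, 10.0 and 10.3 scaled FPKM at 8 h, against 4.60, 4.55 and 4.27 in untreated cells (1.04, SE 0.09). Mfsd1, a transporter of dipeptides, had 49.4, 49.0 and 46.0 at 8 h and 25.9, 25.9 and 22.6 in untreated cells (0.93, SE 0.10). The treated libraries of both were clearly above the untreated ones. Scarb2, which carries glucocerebrosidase to lysosomes, rose by 0.92, Lamp2 by 0.88 and the chloride-proton exchanger gene Clcn7 by 0.77. Lamp1, the main glycoprotein of the lysosomal membrane, had 288, 295 and 300 at 8 h, against 197, 195 and 205 in untreated cells (0.56, SE 0.11). Mcoln1, the calcium channel TRPML1 through which lysosomes activate calcineurin and TFEB, had 5.43, 5.37 and 5.93 at 8 h and 2.86, 3.68 and 3.33 in untreated cells (0.62, SE 0.11). Gpnmb, a glycoprotein often used as a marker of lysosomal stress and also high in macrophages, had 2.17, 2.36 and 2.83 at 8 h, against 0.183, 0.214 and 0.173 in untreated cells. It was the member of the 12 that passed the filter through the 8 h libraries only.

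**Figure D3:**
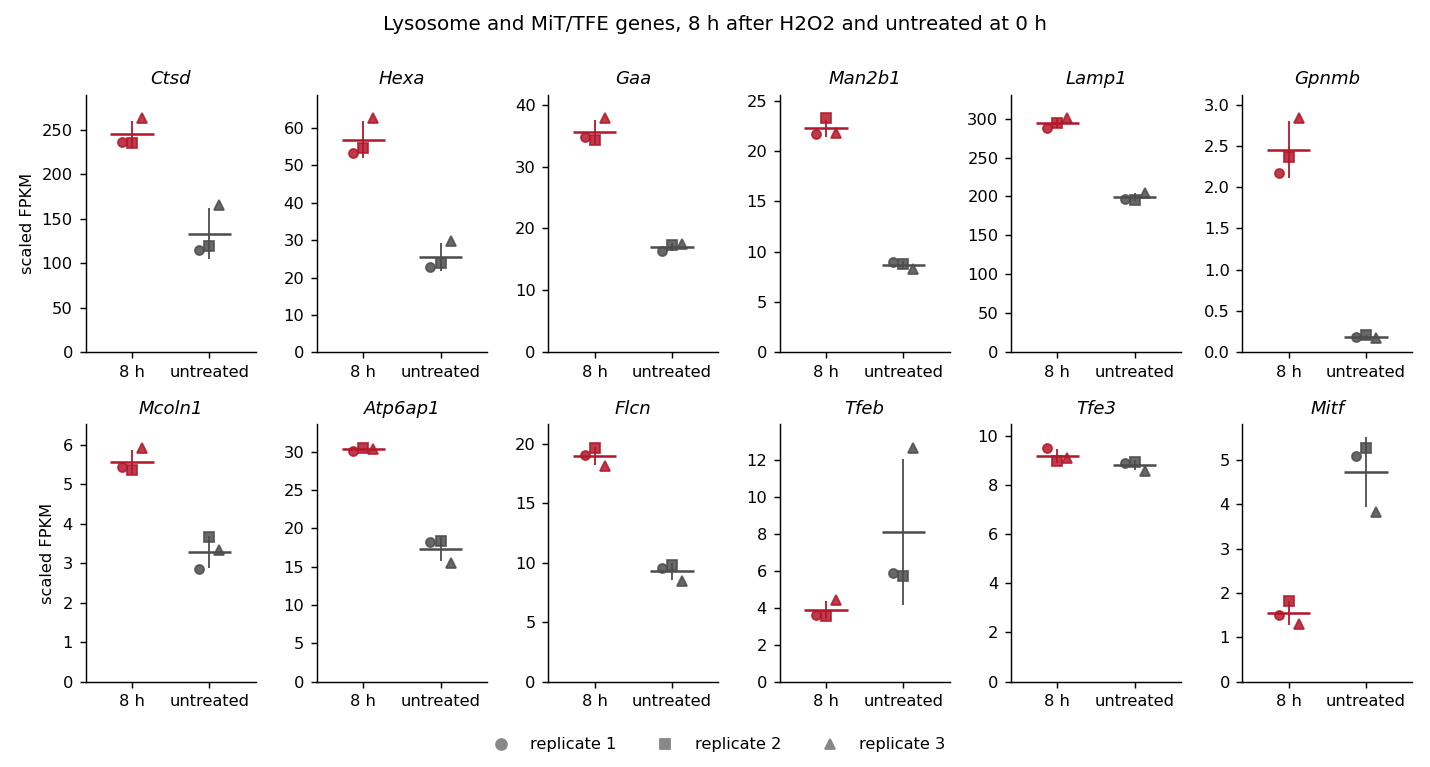
Scaled FPKM (vertical axes, from 0) of 12 lysosome and MiT/TFE genes in the 3 libraries at 8 h (red) and the 3 untreated libraries at 0 h (grey); symbols mark the replicate number, horizontal lines the mean and vertical lines the SD (n = 3 each). The hydrolase and membrane genes, Atp6ap1 and Flcn lie higher at 8 h without overlap, Mitf lies lower, and untreated replicate 3 stands alone for Tfeb.

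The vacuolar ATPase pumps protons into lysosomes. Of its 18 tested subunit genes 4 rose and 0 fell (median 0.42). With the replicate block 10 were called higher and without replicate 3 of both groups 14, with 0 lower in either. All tested genes gave 13.8% higher in the first of these fits and 26.1% higher in the second. Atp6ap1, an accessory subunit, had 30.0, 30.5 and 30.3 scaled FPKM at 8 h, against 18.2, 18.3 and 15.5 in untreated cells (0.78, SE 0.10, adjusted p = 0.0111 by limma). Atp6v0e2 rose by 0.54, Atp6v1c1 by 0.46 and Atp6v1h by 0.44. After the GC correction Atp6v1c1 had an adjusted p of 0.0686 and Atp6v1h one of 0.326 by limma. Atp6v0d1, a membrane-sector subunit, had 93.5, 94.2 and 109 at 8 h and 61.0, 56.0 and 86.3 in untreated cells (0.56, SE 0.19, adjusted p = 0.107 by limma and 0.0323 with the block).

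Of 26 tested genes around mTORC1 and the MiT/TFE factors 3 rose (11.5%, against 6.89% of all tested genes) and 1 fell (3.85%, against 4.88%; 8 and 4 with the block, against 13.8% and 12.1%; median −0.08, and 0.08 without scaling). Flcn, folliculin, which with the Rag GTPases makes mTORC1 act on TFEB and TFE3, had 19.0, 19.6 and 18.2 scaled FPKM at 8 h and 9.54, 9.80 and 8.42 in untreated cells (0.96, SE 0.10, adjusted p = 0.00731 by limma). The Rag GTPase gene Rragc rose by 0.86 and the Ragulator gene Lamtor3 by 0.44. Mitf had 1.50, 1.83 and 1.31 at 8 h, against 5.09, 5.27 and 3.82 in untreated cells (−1.17, SE 0.15), with no overlap. Tfeb had 3.59, 3.55 and 4.41 at 8 h and 5.89, 5.72 and 12.6 in untreated cells, so that untreated replicate 3 widened the spread (−0.83, SE 0.29, adjusted p = 0.122 by limma and 0.0357 with the block). Tfe3 had 9.52, 8.97 and 9.10 at 8 h and 8.90, 8.94 and 8.57 in untreated cells (0.06, SE 0.09).

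Autophagy genes, which feed the lysosome, had 7 rises and 3 falls among 43 tested (median 0.15). The rises are 16.3%, against 6.89% of all tested genes, and the falls 6.98%, against 4.88%. With the block 12 were called higher and 4 lower, against 13.8% and 12.1% of all tested genes. Apart from Sqstm1, Gabarapl1, a membrane-conjugated protein of the autophagosome, rose (11.3, 11.8 and 13.4 at 8 h, against 5.04, 5.75 and 6.96 in untreated cells; 0.93, SE 0.14, adjusted p = 0.0146 by limma), as did Tollip, an adaptor (0.64). The mitophagy receptor genes Bnip3 (−0.60) and Bnip3l (−0.48) fell. Calcoco2, described above among the largest falls, is a further receptor that lay outside the list.

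Genes of cell death and survival were among those that rose at 8 h, while Cdkn1a and Mdm2, the classical p53 targets, missed the threshold. Of 21 tested genes of the BCL2 and death receptor families 7 rose (33.3%, against 6.89% of all tested genes) and 0 fell (median 0.32). The block called 10 higher and 0 lower, against 13.8% and 12.1% of all tested genes. The fit without replicate 3 of both groups called 12 and 1, against 26.1% and 27.2%. Pmaip1, the BH3-only protein NOXA, had 17.2, 16.3 and 13.4 scaled FPKM at 8 h, against 8.12, 6.71 and 4.29 in untreated cells (1.20, SE 0.22, adjusted p = 0.0255 by limma). Perp, a tetraspan membrane protein and p53 target, had 52.7, 53.1 and 54.5 at 8 h and 21.9, 20.7 and 27.5 in untreated cells (1.17, SE 0.13). The death receptor gene Fas had 1.84, 1.57 and 1.82 at 8 h and 0.248, 0.210 and 0.505 in untreated cells, and it was the member of the 7 that passed the filter through the 8 h libraries only. Pmaip1 and Perp had no overlap between the groups. Bcl2l1, which encodes the survival protein BCL-xL, rose too (0.56, SE 0.13), so the set moved in members of opposite function. The related gene Bcl2l2 averaged 4.82 ± 0.491 at 8 h and 2.52 ± 0.563 in untreated cells at 0 h (SD, n = 3 each, all 27 libraries scaled together).

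Of 30 p53 targets in arrest, repair and metabolism 6 rose (20%, against 6.89% of all tested genes) and 1 fell (3.33%, against 4.88%). Their median was 0.28, and with the block 11 were called higher and 1 lower, against 13.8% and 12.1%. Ptpn14, a phosphatase, rose by 1.05, the polo-like kinase genes Plk3 by 0.88 and Plk2 by 0.77, and the repair nuclease gene Ercc5 by 0.85. Cdkn1a, the cell cycle inhibitor p21, had 42.2, 42.0 and 50.6 scaled FPKM at 8 h, against 26.9, 26.3 and 37.8 in untreated cells (0.57, SE 0.17, adjusted p = 0.0866 by limma and 0.0233 with the block). Mdm2, the ubiquitin ligase that degrades p53, had 57.1, 57.8 and 47.4 at 8 h and 40.8, 41.1 and 27.7 in untreated cells (0.57, SE 0.19, adjusted p = 0.102 by limma and 0.0251 with the block). For both the treated libraries lay above the untreated ones, with replicate 3 apart. Trp53 itself had 73.8, 74.7 and 89.3 at 8 h and 101, 103 and 163 in untreated cells (−0.59, SE 0.21, adjusted p = 0.132 by limma and 0.033 with the block). Of 14 genes for p53 and its regulators Trp73, a p53 relative, was the member that rose (0.54). That is 7.14% of them, near the 6.89% of all tested genes. With the block 3 were called higher and 1 lower, against 13.8% and 12.1%.

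Immediate early genes, known for brief induction, were among those higher at 8 h. Of 25 tested 10 rose (40%, against 6.89% of all tested genes) and 1 fell (4%, against 4.88%), with a median of 0.34. With the block 11 were called higher and 3 lower, against 13.8% and 12.1% of all tested genes. Without replicate 3 of both groups 15 and 5 were, against 26.1% and 27.2%. Jun, an AP-1 subunit, had 6.18, 6.40 and 5.90 scaled FPKM at 8 h, against 2.17, 2.48 and 1.94 in untreated cells (1.17, SE 0.10, adjusted p = 0.00612 by limma), and Dusp1, a phosphatase that switches off MAP kinases, had 14.1, 13.7 and 15.3 at 8 h and 5.94, 5.36 and 6.84 in untreated cells (1.13, SE 0.11). Fos rose by 0.68. Fosl1, a further AP-1 subunit, had 3.06, 2.08 and 2.31 at 8 h, against 0.0817, 0.149 and 0.0839 in untreated cells; it was the member of the 10 that passed the filter through the 8 h libraries only. These AP-1 genes stayed at low levels even where the change was large. The serum- and stress-responsive kinase gene Sgk1 went the other way, with 30.6, 31.8 and 29.2 at 8 h and 66.0, 60.4 and 49.5 in untreated cells (−0.91, SE 0.13).

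Pluripotency factors were among the genes that fell at 8 h. Of 17 core factors 9 fell and 0 rose (median −0.57), against 4.88% of all tested genes that fell, and of 23 naive genes 5 fell and 0 rose (median −0.39; 8 with the block). With the block 12.1% of all tested genes were called lower. Nanog, a homeobox factor of the naive state, had 207, 213 and 213 scaled FPKM at 8 h, against 378, 366 and 350 in untreated cells (−0.78, SE 0.11, adjusted p = 0.0142 by limma). Sox2, a partner of OCT4, had 77.3, 77.9 and 85.8 at 8 h and 140, 137 and 143 in untreated cells (−0.80, SE 0.10). Foxd3, a forkhead factor, had 6.14, 6.61 and 8.06 at 8 h and 15.3, 17.5 and 25.9 in untreated cells (−1.35, SE 0.21). In these factors every treated library was below every untreated one. The Nodal coreceptor gene Tdgf1 fell by 1.01 and the DNA methylation cofactor gene Dnmt3l by 1.01. Of the naive genes, Prdm14 fell by 0.90, Tcl1, which promotes growth signalling, by 0.83 and Fbxo15 by 0.76. Pou5f1, which encodes OCT4, had 453, 471 and 578 at 8 h and 597, 616 and 1111 in untreated cells and passed neither without nor with the block (−0.57, SE 0.28; adjusted p = 0.235 and 0.0669 by limma). Mycn, a transcription factor of the MYC family, had 15.0, 16.2 and 16.4 at 8 h, against 33.6, 32.2 and 31.2 in untreated cells (−0.98, SE 0.09). Tubb3, a neuronal tubulin gene also active in this line, changed by −1.11.

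Genes of amino acid supply and of protein folding were among those that fell. Of 35 tested genes of the ATF4 and integrated stress response (median −0.47) 1 rose (2.86%, against 6.89% of all tested genes). Of the same 35, 13 fell (37.1%, against 4.88%). They included Slc7a3, described above, the serine synthesis genes Psph (−0.98) and Phgdh (−0.83), the proline synthesis gene Aldh18a1 (−0.98), and Asns, asparagine synthetase, which had 144, 145 and 156 scaled FPKM at 8 h, against 236, 241 and 253 in untreated cells (−0.71, SE 0.11, adjusted p = 0.0162 by limma). Of 22 cytosolic heat shock chaperone genes (median −0.39) 7 fell (31.8%, against 4.88%) and 1 rose (4.55%, against 6.89%). Cacybp, a cochaperone of protein turnover, changed by −0.89, and Hspa8, the constitutive HSC70, had 461, 462 and 535 at 8 h and 786, 768 and 1140 in untreated cells (−0.86, SE 0.21). Hspb8, a small heat shock protein that works with BAG3, was the member that rose (52.4, 49.9 and 52.1 at 8 h, against 26.6, 28.9 and 40.2 in untreated cells; 0.69, SE 0.17, adjusted p = 0.0491 by limma). In the endoplasmic reticulum 5 of 28 genes fell (17.9%, against 4.88%) and 0 rose (median −0.08, and 0.08 without scaling). With the block 3 were called higher and 9 lower, against 13.8% and 12.1% of all tested genes. Hspa5, the main chaperone BiP, had 71.4, 73.7 and 65.6 at 8 h and 150, 146 and 133 in untreated cells (−1.01, SE 0.11), and Hsp90b1 fell by 0.88. In Asns and Hspa5 the groups were far apart and the replicates close together.

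Of 38 genes of G2/M and mitosis 5 fell (13.2%, against 4.88% of all tested genes) and 0 rose (median −0.21). With the block 10 were called lower, and without replicate 3 of both groups 26 lower and 1 higher. All tested genes gave 12.1% lower with the block, and 27.2% lower and 26.1% higher without replicate 3. The mitotic kinase gene Plk1 had 43.1, 44.0 and 50.8 scaled FPKM at 8 h, against 74.6, 72.8 and 85.4 in untreated cells (−0.74, SE 0.12, adjusted p = 0.018 by limma), and Cdc20, an activator of the anaphase-promoting complex, changed by −0.72. Ccnd1, cyclin D1, had 15.8, 15.8 and 13.4 at 8 h and 38.5, 37.6 and 32.4 in untreated cells (−1.22, SE 0.12), whereas Rb1, the retinoblastoma protein that D cyclins inactivate through their kinases, had 9.18, 8.81 and 6.67 at 8 h and 3.98, 3.97 and 2.12 in untreated cells (1.10, SE 0.23). In both the groups were distinct. Of 38 ribosome biogenesis genes 5 fell (13.2%) and 0 rose (median −0.33; 11 lower with the block, and 31 lower and 3 higher without replicate 3), with Nop58 (−0.70) and Nop56 (−0.62), core proteins of the snoRNA particles that methylate ribosomal RNA, at their head. By contrast 0 of 82 cytosolic ribosomal protein genes passed; their median of −0.27 was 0.01 without replicate 3 of both groups. Of 34 proteasome genes 0 passed (median −0.36; 7 lower with the block, and 29 lower without replicate 3). Of 30 genes of glycolysis and the hypoxia response 5 fell (16.7%) and 1 rose (8 and 1 with the block, 20 and 2 without replicate 3); Ldha, lactate dehydrogenase A, changed by −0.82 and the phosphofructokinase gene Pfkp by −0.83.

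**Figure D4:**
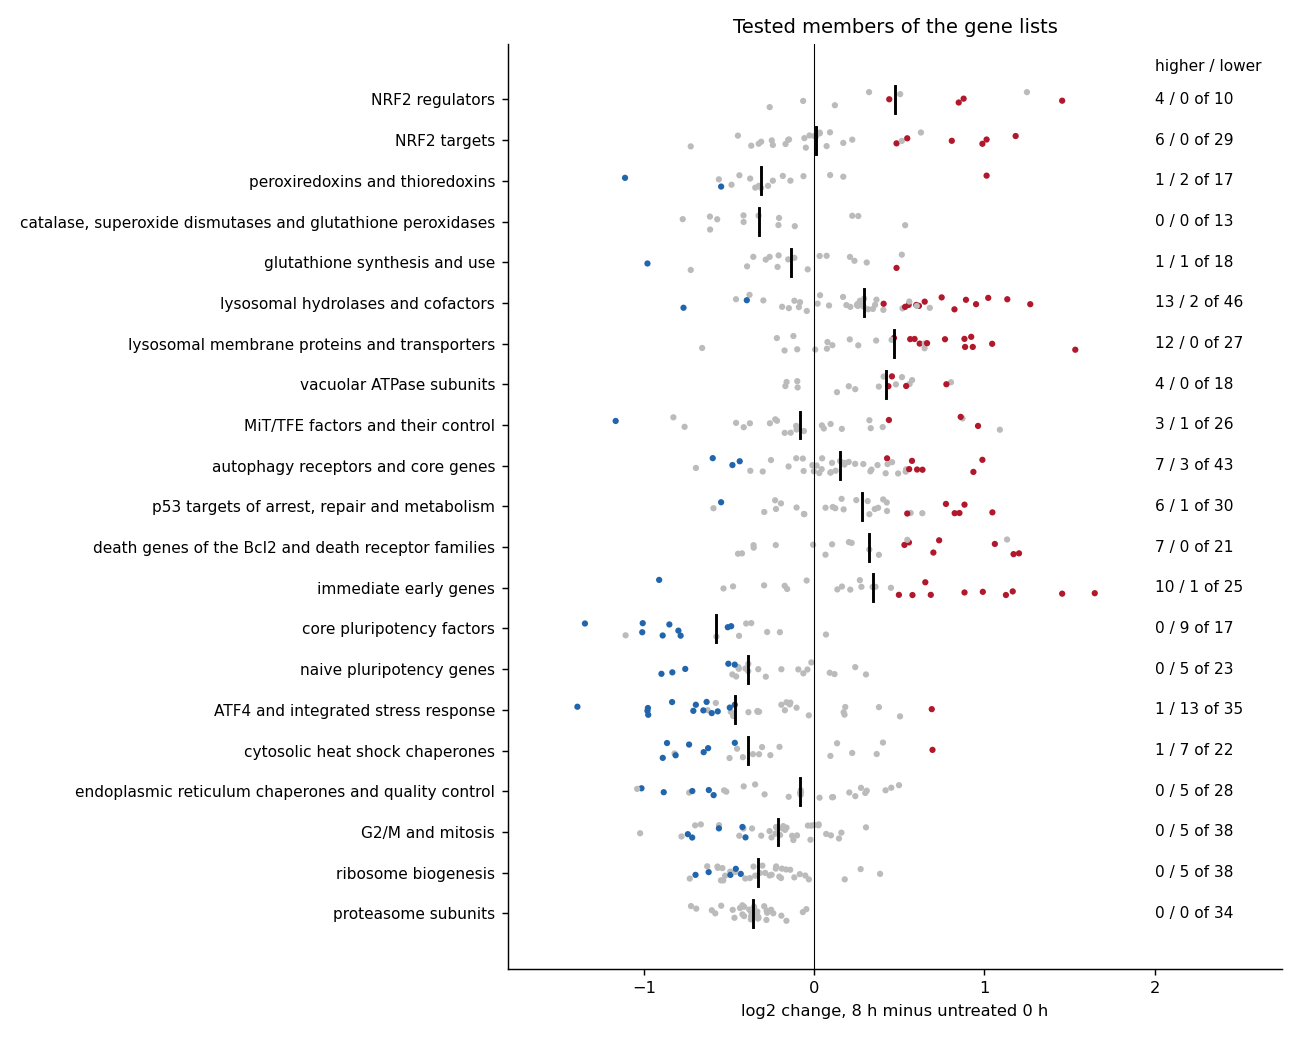
Log2 change, 8 h minus untreated 0 h, of the tested members of 21 gene lists, 1 point a gene; red points are called higher, blue points lower and grey points neither, and the black bar is the median of the list. Counts at the right give the members called higher and lower of those tested; more members are called higher than lower in the lysosome, death and immediate early lists, and more lower than higher in the pluripotency, ATF4 and chaperone lists.

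Against 6 h, the time before, 8 h had lower levels of p53 genes and higher levels of Nanog, Prdm14, Srxn1 and Gclm. A fit of 12 libraries (8 h, 6 h, 10 h and untreated 0 h) called 2004 genes, 16.1% of those tested, 1121 higher (9.0%) and 883 lower (7.09%) at 8 h than at 6 h. The genes tested were those kept for 8 h against untreated cells. A gene at 1 FPKM only at 6 h could therefore not enter, while one at 1 FPKM only at 8 h could. The split into higher and lower thus depends on the filter, and without one 1012 of 2014 calls were higher (50.2%). The 6 h libraries had GC slopes of 0.106 to 0.113 per 10 points. Leaving out single libraries of these groups gave 1139 to 1239 calls, the lowest without 6 h replicate 1 and the highest without 8 h replicate 3. Without scaling, 1537 of 1928 calls were higher (79.7%).

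Of the p53 regulators 6 of 14 were lower at 8 h than at 6 h and 0 higher, and of the p53 targets 12 of 30 lower and 1 higher. All tested genes gave 7.09% lower and 9.0% higher in this comparison. Mdm2 averaged 54.0 ± 6.06 scaled FPKM at 8 h and 143 ± 4.92 at 6 h (SD, n = 3 each; −1.40, SE 0.16, adjusted p = 0.000336 by limma). Trp73 averaged 6.07 ± 0.39 at 8 h and 19.2 ± 0.929 at 6 h (−1.52, SE 0.08), and Polk, a translesion polymerase gene, 5.15 ± 1.01 and 18.0 ± 0.805 (−1.64, SE 0.24). Fas was lower by 0.97, and Sesn2, a stress-induced inhibitor of mTORC1, changed by −0.79. Klhl26, among the largest rises over untreated cells, stood at 29.7 ± 1.16 at 8 h and 75.8 ± 1.78 at 6 h (−1.32, SE 0.07). Nectin4 (−1.53), Tas1r1 (−1.43) and Fosl1 (−1.43) were the other large falls from 6 h. Among pluripotency genes, 6 of 17 core factors were higher at 8 h than at 6 h and 1 lower, and 6 of 23 naive genes were higher and 2 lower. Nanog averaged 210 ± 3.2 at 8 h and 91.6 ± 1.25 at 6 h (1.19, SE 0.07), and Prdm14 5.78 ± 0.0702 and 2.29 ± 0.16 (1.05, SE 0.11). The Nodal antagonist gene Lefty1 had the largest such difference among the named genes (6.07 ± 0.614 at 8 h and 0.877 ± 0.318 at 6 h; 1.92, SE 0.21), followed by Cdc42ep5 (1.64), Bmp4 (1.51), Prss35 (1.48) and Klf13 (1.41). In the mitotic list 12 of 38 genes were higher and 0 lower; Plk1 was higher by 0.77 and Mycn by 0.82.

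Among redox genes, Srxn1 averaged 30.7 ± 0.372 scaled FPKM at 8 h and 17.1 ± 0.842 at 6 h (0.81, SE 0.06, adjusted p = 4.58e-05 by limma), Gclm was higher by 0.49 and Keap1 by 0.59. Maff (−0.59) and Mafg (−0.32) were lower at 8 h than at 6 h, and Hmox1 did not pass (−0.08, SE 0.10). Of 29 NRF2 targets 2 were higher and 0 lower, against 9.0% and 7.09% of all tested genes. Of 46 hydrolase genes 3 were higher and 3 lower, of 27 membrane genes 1 higher and 3 lower, and of 18 proton pump genes 0 in either direction. Man2b1 was lower by 0.40, Clcn7 by 0.82 and Flcn by 0.64. Plaur stood at 20.9 ± 2.34 at 8 h and 8.42 ± 0.798 at 6 h (1.22, SE 0.14), and Txnip was higher by 0.52.

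Against 10 h the differences were few: 159 genes, 1.28% of those tested, with 88 higher (0.707%) and 71 lower (0.57%) at 8 h, and 259 with the replicate block (2.08%; 1.11% higher and 0.972% lower). Leaving out single libraries cut this to 6, 4 and 24 calls without 8 h replicates 1, 2 and 3, and to 18, 25 and 33 without 10 h replicates 1, 2 and 3. Without scaling 68 of 97 calls were higher (70.1%). The same filter applied here, so genes at 1 FPKM only at 10 h could not enter. Without a filter 97 of 141 calls were higher (68.8%). Klhl26 was higher at 8 h, at 29.7 ± 1.16 against 12.6 ± 0.354 scaled FPKM at 10 h (1.18, SE 0.07, adjusted p = 0.000192 by limma), and so were Tbc1d8 (0.71), Aqp3 (0.65), Trafd1 (0.62), Slc25a44 (0.60), Trpm1 (0.52), Flcn (0.38) and Ctns (0.29). Lefty2 averaged 6.62 ± 0.734 at 8 h and 19.7 ± 0.957 at 10 h (−1.44, SE 0.12), and Lefty1 (−1.11), Peg10 (−0.89), Ccn2 (−0.84) and Id2 (−0.69) were lower at 8 h as well. NRF2 targets gave 3 calls, all lower at 8 h than at 10 h: Srxn1 (30.7 ± 0.372 against 37.7 ± 0.568; −0.29, adjusted p = 0.049 by limma), Gclm (−0.31) and Nqo1 (50.2 ± 1.07 against 67.1 ± 5.21; −0.41). Txnip was lower by 0.47.

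Placed on the whole time course, with all 27 libraries scaled together and as a description without a test, the genes of the 8 h comparison followed different paths. Hmox1 averaged 93.3 scaled FPKM in untreated cells at 0 h, 177 at 4 h, 229 at 6 h, 213 at 8 h, 166 at 10 h and 76.8 at 24 h. Srxn1 stood at 14.5, 11.1, 17.1, 30.2, 36.9 and 12.9 at the same points, with the highest mean at 10 h. Ctsd stood at 131, 219, 268, 241, 206 and 143, with the highest mean at 6 h, as for Hmox1. Maff had its highest mean, 10.8, at 4 h and stood at 4.68 at 8 h. Mdm2 was at 35.8 in untreated cells at 0 h, 132 at 4 h, 143 at 6 h and 53.2 at 8 h. Nanog had its lowest mean at 6 h (91.5), stood at 208 at 8 h and at 352 at 24 h, next to 357 in untreated cells at 0 h. For Plaur and Calcoco2, as for Srxn1, 8 h and 10 h were the extreme times. Plaur stood at 20.7 at 8 h and 19.0 at 10 h, after 8.41 at 6 h, and Calcoco2 at 56.6 and 54.5, after 101.

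**Figure D5:**
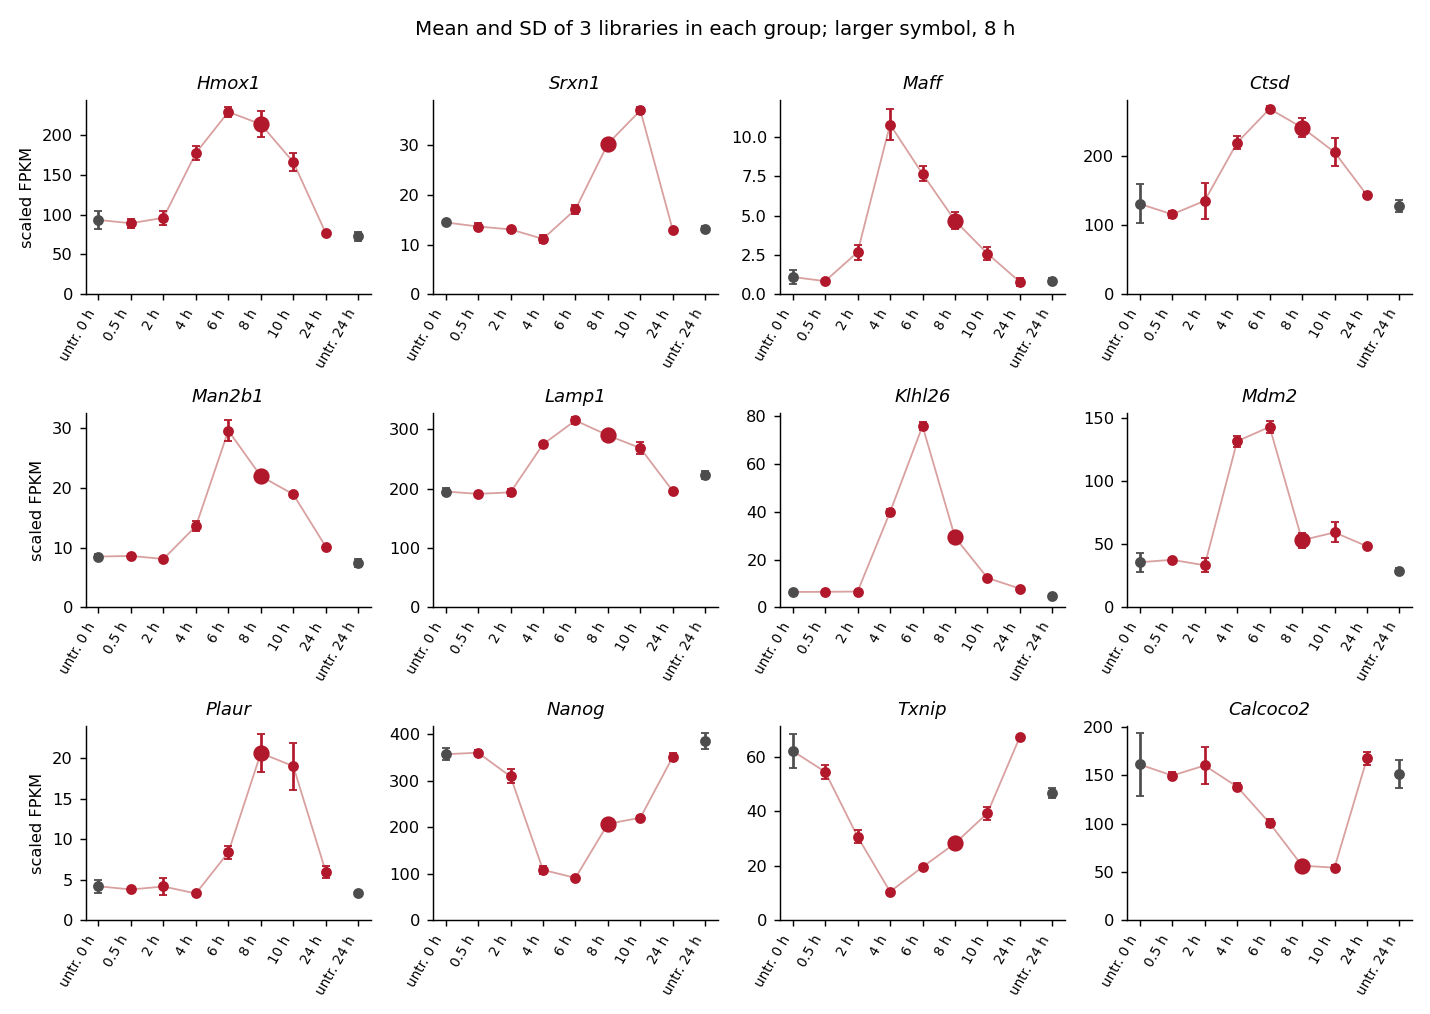
Scaled FPKM (vertical axes, from 0; all 27 libraries scaled together) of 12 genes in untreated cells at 0 h, treated cells at 0.5 h to 24 h and untreated cells at 24 h; points are means and bars the SD of 3 libraries, lines join the treated groups to the 0 h group, the horizontal axis is not to scale in time, and the larger symbol is 8 h. Hmox1, Ctsd, Man2b1, Lamp1, Klhl26 and Mdm2 are highest at 6 h, Srxn1 at 10 h, Plaur at 8 h and Maff at 4 h.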

How the data were processed

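RNA of E14Tg2a cells was sequenced from a stranded mRNA library, per the labels' protocols; HISAT2, StringTie, cutadapt, FastQC and edgeR, with mouse build mm10, are listed without versions per the submitters' processing notes. An annotation release is not given in the sources used here. Expression is in FPKM as deposited by the authors, 1 column per library. The authors' deposited tables also hold a fold ratio, a log2 fold change, a p-value and a q-value per gene from their own comparison; these served only to count the genes their table marks as changed, all of which have a q-value below 0.05 and a log2 fold change beyond 1 either way. Read counts were not used here. Among genes below 0.05 FPKM, the most frequent ratio between any of these 6 libraries and untreated replicate 1 was held by at most 3.69% of genes, so relative depth could not be read from the values and the depth is unknown.

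FPKM columns were divided by median-of-ratios factors and tested as log2(scaled FPKM + 1) with limma 3.58.1 (trend) in R 4.3.3. All comparisons used the same genes, those that reached 1 FPKM in 3 or more of the 6 libraries at 8 h and untreated 0 h. P-values were adjusted by Benjamini-Hochberg over all genes tested, threshold 0.05; the +1 understates changes of low genes. The comparison with untreated cells used 6 libraries, those with 6 h and 10 h used 12. Tables were made with Python 3.11.15 and pandas 2.3.3. The unblocked fit of 6 libraries was tested on simulated data with independent noise in each library. That test does not cover a deviation shared by the replicates 3, the blocked fit or the fits of 12 libraries.

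The series text gives 3 independent time courses and says that numbers mark biological replicates, but not that a number is 1 course. Deviations from the group mean correlated by 0.527, 0.534 and 0.763 between same-numbered 8 h and untreated libraries. Replicates 1 and 2 correlated as well with each other's partner (0.549 and 0.508), and replicate 3 stood apart in both groups. These values therefore cannot show that equal numbers are partners, and the pairing in the blocked fit is an assumption. The main test has no block, and the blocked fit was run beside it.

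Gene identities, GC content and coordinates are from GENCODE M21 (GRCm38), which matched 38196 of 38352 identifiers; promoter sequences are from RefSeq (GRCm38.p6), with windows for 163 of 198 list members searched. Members and lists were chosen with earlier results of these data known. Named genes were the 12 largest rises and 12 largest falls (5 each against 6 h and 10 h) among changed genes averaging 5 FPKM or more in either group with no overlap, the 4 largest changes of each list and a fixed panel. Ephx1, Cbr3, Gsta4, Mafk, Bach1, Manba, Acp5, Clcn7, Bnip3, Bnip3l, Plk2, Bcl2l1, Sgk1, Phgdh, Asns and Hspb8 were chosen after their values were seen. Some genes that the rule selects are not reported here. Alternatives varied the pseudocount, filter, scaling, controls, weights, block, GC correction and libraries.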

Additional observations from a re-analysis of the deposited data

How the results depend on the processing

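The number of genes called at 8 h against untreated cells (1466) depended on the fit. It was 3555 after correction for GC content and length, 5096 with all 27 libraries, 3949 with both untreated groups as control, 812 with a filter of 5 FPKM, 8195 with library weights, 212 for a minimum change of 2-fold, 3221 with the replicate block, 4429 with the block and GC correction, and 6634 without replicate 3 of every group; leaving out 1 library gave 0 to 3826. Against 6 h (2004) the same alternatives gave 3569 (GC), 3156 (27 libraries), 1181 (5 FPKM), 7168 (weights), 114 (2-fold), 4199 (block with GC) and 5941 (without replicate 3 of every group), and 1139 to 1239 with 1 library left out. Against 10 h (159) they gave 869, 789, 80, 4312, 3, 1133 and 1750, with 259 for the replicate block, 97 without scaling and 4 to 33 with 1 library left out. Within 1.5 times were the counts against untreated cells with a pseudocount of 0.1 (1395), no filter (1029), no trend (1454) and no scaling (1522). A similar count did not mean the same genes: the fit without a filter, over 31483 genes, shared 753 of the 1466 calls and lost 713. Of the 115 named genes called, 73 stayed past the threshold in that fit. The 115 named genes called at 8 h against untreated cells kept their direction under every alternative that gave a value; 110 stayed past the threshold after GC correction (not Gclm, Ctsb, Atp6v1c1, Atp6v1h and Abcg1), 105 without scaling (not Hnrnpa3, Txnrd3, Manba, Bnip3, Bnip3l, Prdm14, Hsp90b1, Nop58, Pfkp and Ciart), 7, 0 and 29 without 8 h replicates 1, 2 and 3, and 40, 36 and 115 without untreated replicates 1, 2 and 3. Beside the results where the report gives it, the replicate block changed no other call of a named gene. Nqo1, uncalled at −0.03, changed sign to 0.119 with GC correction alone or with the block, 0.210 with both untreated groups, 0.0292 with the 5 FPKM filter, 0.0411 with weights, 0.147 without scaling, 0.0296 without replicate 3 of every group, and ranged from −0.0781 to 0.0417 with 1 library left out. Tfe3 (0.06) changed to −0.0793 with GC correction alone or with the block, and Hmox1 against 6 h (−0.08) to 0.0351 without scaling. For these changes the cause was not tested. Depth is unknown, so changes of genes below about 1 FPKM in a group have the least support.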

Other observations

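Clock genes gave 2 rises (18.2%, against 6.89% of all tested genes) and 1 fall (9.09%, against 4.88%) among 11 tested at 8 h. Bhlhe40, a repressor of the circadian loop that is also induced by stress, had 4.70, 5.01 and 5.01 scaled FPKM at 8 h, against 1.41, 1.41 and 1.12 in untreated cells (1.35, SE 0.10, adjusted p = 0.00563 by limma). Its groups were far apart. Tef, a clock-controlled activator, rose by 0.76, and Ciart, a circadian repressor, changed by −0.53.

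Slc30a1, the zinc exporter of the plasma membrane, averaged 11.2 ± 1.18 scaled FPKM at 8 h and 6.97 ± 0.977 in untreated cells (SD, n = 3 each; 0.62, SE 0.14, adjusted p = 0.0398 by limma). The metallothionein gene Mt1 had 194, 189 and 264 at 8 h, against 82.1, 83.3 and 199 in untreated cells, with overlap between the groups (0.94, SE 0.37, adjusted p = 0.159 by limma and 0.0321 with the replicate block). Abcg1, a cholesterol exporter, rose to 1.18, 1.48 and 1.29 at 8 h, against 0.587, 0.604 and 0.584 in untreated cells (0.54); it passed the filter on low values through the 8 h libraries only, and after correction for GC content and length its adjusted p was 0.0606 by limma.

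The rule for named genes left out 25 rises and 44 falls that belong to short RNA genes or to gene models without a usual symbol.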
